A study of Mus musculus with 8 samples.

Results

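10 genes for glycoproteins and proteoglycans of the extracellular matrix were followed in JUN TetON ESCs, a mouse embryonic stem cell line whose AP-1 factor JUN is induced by doxycycline. The 10 genes are *Fn1*, *Sparc*, *Thbs1*, *Spp1*, *Nid1*, *Nid2*, *Hspg2*, *Agrn*, *Tnc* and *Vtn*. They were taken by name from a table of 50600 gene names, and each name was found once. All 8 libraries came from the c-Jun_TetOn_mESC line, whose strain is labelled as mixed, at passage P12, and all received 2 μg/ml doxycycline. Per the study's methods the line carries the OG2 transgenes and was grown without feeders in 2i/LIF medium with serum. The 4 groups received the solvent DMSO, the compound PFI-3, the compound BI-9564, or the 2 together (P+B), for 6 h by the labels, with 2 libraries per group. The labels do not give the doses, so whether P+B held each compound at the dose used alone is not known here. PFI-3 binds the bromodomain of BRG1, the ATPase of BAF chromatin remodeling complexes, and BI-9564 binds the bromodomains of BRD9 and BRD7, subunits of such complexes. JUN was induced in every group, so its own effect on these genes could not be measured here.

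Matrix glycoproteins are secreted proteins that bind collagens, laminins, growth factors and cell surface receptors, mostly integrins. Nidogens, perlecan and agrin belong to the basement membrane, the thin sheet on which epithelial cells and early embryonic cells rest. Fibronectin forms fibers on which cells spread. The matricellular proteins SPARC, osteopontin, thrombospondin and tenascin change how cells attach rather than build the sheet. Cultured ESCs attach through such proteins, and attachment genes are a known group of genes that AP-1 factors can activate.

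*Spp1* and *Hspg2* were the members whose libraries separated by BI-9564. Both had lower levels in all 4 libraries with BI-9564, alone or with PFI-3, than in all 4 libraries without it. The same held for 6.04% of tested genes. *Sparc* had its lowest level with P+B. *Thbs1* was near the bottom of the measurable range and was lower wherever PFI-3 was present. That pattern was seen in 1.12% of genes with a mean of at least 1 TPM. *Fn1*, *Nid1*, *Nid2* and *Agrn* had overlapping levels in the 4 groups, and *Tnc* and *Vtn* were listed at 0 in every library. At thresholds of 0.05 for the adjusted p-value and 1.5 for the fold, no member passed in any comparison of 2 treatments, in the fit without a replicate block. With the replicate number kept as a block, *Spp1* passed for P+B against DMSO, BI-9564 against DMSO and P+B against PFI-3. It also passed for P+B against DMSO without the block when libraries were centred on their median.

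The values were read as TPM, a length-corrected share of all transcripts in a library, made whole numbers. This rests on the unit the study names for its RNA-seq and on the values, which are all whole and sum to nearly the same total in each library. TPM accounts for transcript length, so levels of different genes can be compared, but it keeps no read number, and the counting error is unknown. The libraries summed to 991574 to 991897. Across genes, which are not independent, replicates of a group correlated at Pearson's r of 0.964 to 0.971. The 10 pluripotency markers checked were all present, with summed levels of 3321 to 5205 TPM. Of 10 fibroblast markers 6 were at 0 in all libraries, among them *Col1a2*, *Dcn* and *Postn*, and the summed level of the list was 0 to 5 TPM. Extra-embryonic endoderm markers, which mark cells that secrete much basement membrane, summed to 3 to 11 TPM, with *Foxa2*, *Sox7* and *Afp* among the 5 of 10 at 0 throughout. In P+B libraries that sum was 7 to 11 TPM, against 4 to 6 in DMSO libraries, and its part in any result was not tested. Trophoblast markers summed to 40 to 52 TPM and endothelial and blood markers to 6 to 14 TPM. In bulk RNA, fewer cells of a type and less RNA per cell cannot be told apart. The labels do not say whether replicates came from separate cultures, so p-values measure the spread between these libraries, which may be technical.

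**Figure D1:**
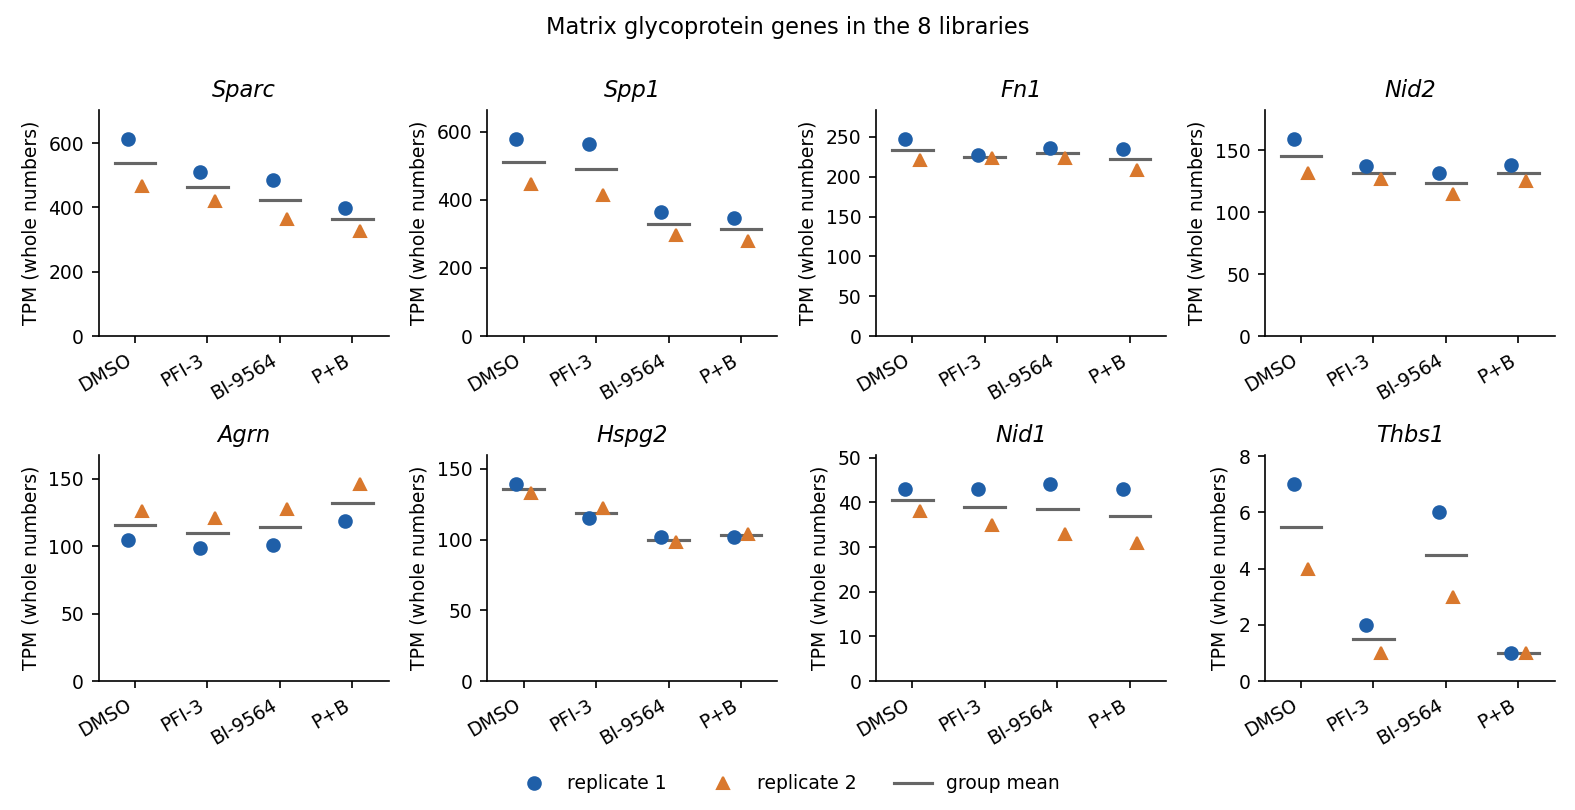
TPM (whole numbers, y axis from 0) of the 8 members above 0 by treatment group (x axis), with a circle for replicate 1, a triangle for replicate 2 and a bar for the mean of the 2 libraries. *Spp1* and *Hspg2* sit lower in the 4 libraries with BI-9564 than in the 4 without it, *Thbs1* sits lower in the 4 libraries with PFI-3, and replicate 2 of *Sparc* and *Spp1* lies below replicate 1 in every group. The BI-9564 separation was seen in 6.04% of tested genes, and the PFI-3 one in 1.12% of genes with a mean of at least 1.

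The 8 members above 0 covered a wide range of levels. Mean levels over the 8 libraries were 447.6 TPM for *Sparc*, 411.4 for *Spp1*, 227.6 for *Fn1*, 133.1 for *Nid2*, 118.1 for *Agrn*, 114.4 for *Hspg2*, 38.8 for *Nid1* and 3.12 for *Thbs1*. *Sparc* and *Spp1*, 2 matricellular genes, together held 49.6% to 63.3% of the summed level of the 10 members. The order of these neighbors was not fixed, because *Sparc* was above *Spp1* in 7 of 8 libraries and below it in replicate 1 of PFI-3. *Nid2* was above its paralog *Nid1* in 8 of 8 libraries, at 3.0 to 4.03 times its level. *Agrn* was above *Hspg2* in 3 of 8 libraries, so these 2 heparan sulfate proteoglycans could not be ordered. Among the 10222 genes tested, those whose mean reached 5 TPM, *Sparc* ranked 303 and *Spp1* 324.

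*Spp1* encodes osteopontin, a secreted phosphoprotein that binds αv integrins and CD44. The gene lies on the forward strand of chromosome 5, at 104435118 to 104441050 of GRCm38 (GENCODE M21), and overlaps *Gm42793*, a gene model on the same strand. *Spp1* was at 578 and 446 TPM in the DMSO pair, 565 and 414 under PFI-3, 364 and 297 under BI-9564, and 347 and 280 when both compounds were given. The P+B and BI-9564 libraries were all below the DMSO and PFI-3 libraries, while DMSO and PFI-3 overlapped, as did BI-9564 and P+B. Of tested genes, 6.04% had all libraries with BI-9564 below all libraries without it. Mean levels were 512 ± 93.3 TPM for DMSO, 490 ± 107 for PFI-3, 331 ± 47.4 for BI-9564 and 314 ± 47.4 for P+B (SD, n = 2). The level with P+B was thus 38.8% below DMSO.

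*Hspg2* encodes perlecan, a large heparan sulfate proteoglycan of basement membranes. It lies on the forward strand of chromosome 4, at 137468769 to 137570630 of GRCm38, and contains the microRNA gene *Mir7018*. *Hspg2* was at 139 and 133 TPM in the DMSO pair, 115 and 122 under PFI-3, 102 and 98 under BI-9564, and 102 and 104 when both compounds were given. The DMSO libraries were above all others, the PFI-3 libraries came next, and the BI-9564 and P+B libraries overlapped. All libraries with BI-9564 were thus below all without it, as for 6.04% of tested genes. Means were 136 ± 4.24, 119 ± 4.95, 100 ± 2.83 and 103 ± 1.41 TPM in that order of groups (SD, n = 2), a spread much smaller than for *Spp1*.

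The bases before the start site of these 2 genes are shown because they are the members whose libraries separated by BI-9564, and JUN acts through short AP-1 sites. Both are RefSeq windows of GRCm38.p6 on the forward strand, 250 bases each, at chr5:104434861-104435110 for *Spp1* and chr4:137468553-137468802 for *Hspg2*. Capitals mark matches to a TATA box (TATAAA) or a GC box (GGGCGG), searched on both strands.
Spp1: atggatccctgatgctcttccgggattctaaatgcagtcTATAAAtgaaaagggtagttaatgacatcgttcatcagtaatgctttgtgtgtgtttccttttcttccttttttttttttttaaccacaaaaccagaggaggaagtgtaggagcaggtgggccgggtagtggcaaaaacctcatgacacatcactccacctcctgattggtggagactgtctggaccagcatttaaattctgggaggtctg
Hspg2: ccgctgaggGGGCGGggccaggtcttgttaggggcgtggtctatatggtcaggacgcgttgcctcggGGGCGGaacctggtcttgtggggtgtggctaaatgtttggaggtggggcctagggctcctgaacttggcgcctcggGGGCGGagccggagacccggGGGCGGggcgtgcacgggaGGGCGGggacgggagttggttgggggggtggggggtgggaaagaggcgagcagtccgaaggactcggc
*Spp1* held 1 TATAAA, starting at position −211 from the start site, and no GC box. *Hspg2* held 5 GC boxes and no TATAAA. Windows of 300 bases, 250 before and 50 after the start, were on hand for 7 of the 10 members, 10 windows in all. The AP-1 motif TGANTCA was in 0 of these 10 windows and in 7.81% of 32851 promoter windows, and the CRE motif TGACGTCA was in 0 of 10 and in 1.79%. The first *Agrn* window held 12 GC boxes, and those of *Nid1* and *Sparc* held 1 and 0, while 35.7% of all windows held at least 1. The TATAAA match, present in 13.6% of all windows, was also found for *Vtn* and *Tnc*, the 2 members listed at 0. The absence of a motif here says only that these letters are not in these windows.

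*Sparc* encodes SPARC, or osteonectin, a collagen-binding matricellular protein, on the reverse strand of chromosome 11 at 55394500 to 55423183. It was at 612 and 466 TPM in the DMSO pair, 509 and 420 under PFI-3, 485 and 364 under BI-9564, and 399 and 326 when both compounds were given. Both P+B libraries were below both DMSO and both PFI-3 libraries, whereas each single compound overlapped DMSO. Either of these separations taken alone was seen in 18.9% of tested genes. The group means were 539 ± 103, 465 ± 62.9, 425 ± 85.6 and 363 ± 51.6 TPM (SD, n = 2). Replicate 2 was 73 to 146 TPM below replicate 1 in each group, and within each replicate number the level was lower at every step from DMSO to PFI-3, BI-9564 and P+B.

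*Thbs1* encodes thrombospondin 1, an activator of latent TGF-β, on the forward strand of chromosome 2 at 118111876 to 118127133. It was at 7 and 4 TPM in the DMSO pair, 2 and 1 under PFI-3, 6 and 3 under BI-9564, and 1 and 1 when both compounds were given. All 4 libraries with PFI-3 were therefore below all 4 without it, as were 1.12% of genes with a mean of at least 1. Values this low carry a large rounding step, since 1 TPM is the smallest step of the table. Its mean of 3.12 TPM was below the filter for testing, and its tests below come from a fit of 13101 genes whose mean was 1 TPM or more.

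*Fn1* encodes fibronectin, the fiber-forming ligand of α5β1 integrin, on the reverse strand of chromosome 1 at 71585520 to 71653200. It was at 247 and 221 TPM in the DMSO pair, 227 and 223 under PFI-3, 236 and 223 under BI-9564, and 235 and 209 when both compounds were given. It varied least of the members above 0, by 1.18-fold from the lowest to the highest library, and all groups overlapped.

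The nidogens link laminin to type IV collagen in the basement membrane. *Nid2*, on chromosome 14 at 19751265 to 19811787, was at 159 and 132 TPM in the DMSO pair, 137 and 127 under PFI-3, 132 and 115 under BI-9564, and 138 and 125 when both compounds were given. *Nid1*, on chromosome 13 at 13437551 to 13512269, was at 43 and 38 TPM in the DMSO pair, 43 and 35 under PFI-3, 44 and 33 under BI-9564, and 43 and 31 when both compounds were given. In neither gene did a treated group separate from DMSO, although the BI-9564 and DMSO libraries of *Nid2* met only at 132 TPM. *Nid2* overlaps the protein coding gene *Rtraf* on the opposite strand, and *Nid1* an antisense gene model, *Gm48682*.

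*Agrn* encodes agrin, the heparan sulfate proteoglycan that clusters acetylcholine receptors at the synapse and binds dystroglycan, on the reverse strand of chromosome 4 at 156165290 to 156197488. It was at 105 and 126 TPM in the DMSO pair, 99 and 121 under PFI-3, 101 and 128 under BI-9564, and 119 and 146 when both compounds were given. It had its highest level in both replicates with P+B, the reverse of *Spp1* and *Sparc*, but the groups overlapped. *Tnc*, which encodes tenascin C, and *Vtn*, which encodes the serum adhesion protein vitronectin, were listed at 0 in all 8 libraries. Both are on GRCm38, *Tnc* on chromosome 4 at 63959785 to 64047015 and *Vtn* on chromosome 11 at 78499091 to 78502324.

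The replicate number moved with the level of most members. *Fn1*, *Sparc*, *Spp1*, *Nid1* and *Nid2* were lower in replicate 2 than in replicate 1 in all 4 groups, as were 12.8% of tested genes. *Agrn* was higher in replicate 2 in all 4 groups, as were 11.1% of tested genes. The step was −0.45 to −0.29 in log2 level for *Spp1*, −0.41 to −0.28 for *Sparc* and 0.26 to 0.34 for *Agrn*. For *Hspg2* it was −0.06 to 0.08.

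P+B against DMSO asks what inhibiting both kinds of bromodomain does to these genes while JUN is on. Fold changes were taken on log2(TPM + 1) with limma over all tested genes, with Benjamini-Hochberg adjusted p-values. Of the 7 members tested, 0 passed both thresholds, where 2.72% of all tested genes were called lower and 1.28% higher. At an unadjusted p under 0.05 there were 3 of 7 members, beside 2306 of 10222 tested genes. The log2 fold change of *Spp1* was −0.70 ± 0.19 (SE, adjusted p = 0.0744), that of *Sparc* was −0.57 ± 0.18 (adjusted p = 0.117) and that of *Hspg2* was −0.40 ± 0.09 (adjusted p = 0.0422). *Hspg2* passed the p threshold but not the fold threshold, at 1.32-fold. With the replicate number as a block, *Spp1* passed both thresholds at 1.63-fold lower (adjusted p = 0.000686), where 4.1% of tested genes were called lower. *Sparc* then had an adjusted p of 0.00147 at 1.48-fold, just under the fold threshold. Over all alternatives the adjusted p was 0.000686 to 0.308 for *Spp1*, 0.00147 to 0.412 for *Sparc* and 0.0164 to 0.161 for *Hspg2*.

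The other members did not pass, and their intervals bound what could have been missed. The log2 fold change with P+B was −0.08 for *Fn1* (95% interval −0.29 to 0.14, adjusted p = 0.678) and −0.14 for *Nid2* (−0.42 to 0.14, adjusted p = 0.543). It was −0.14 for *Nid1* (−0.61 to 0.32, adjusted p = 0.725) and 0.19 for *Agrn* (−0.19 to 0.58, adjusted p = 0.538). For *Fn1*, *Nid2* and *Agrn* the interval without the replicate block lay within the fold threshold of 1.5 in both directions, and for *Nid1* it did not. With the block the *Nid1* interval was −0.41 to 0.13, within that threshold. The *Agrn* interval was then 0.03 to 0.36, above 0, with an adjusted p of 0.113 in limma. *Thbs1* came to −1.66 ± 0.44 in log2 (adjusted p = 0.092), which passed both thresholds with the replicate block (adjusted p = 0.0419), where 3.21% of the 13101 genes were called lower. The block for this gene was chosen after seeing the data. Its values, 7 and 4 TPM with DMSO and 1 and 1 with P+B, lie near the rounding step of 1 TPM. Without the block and with no filter the adjusted p of *Thbs1* was 0.118. Every P+B library was below every DMSO library for *Sparc*, *Spp1*, *Hspg2* and *Thbs1*, and 18.9% of tested genes showed the same (17.5% of those with a mean of at least 1).

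**Figure D2:**
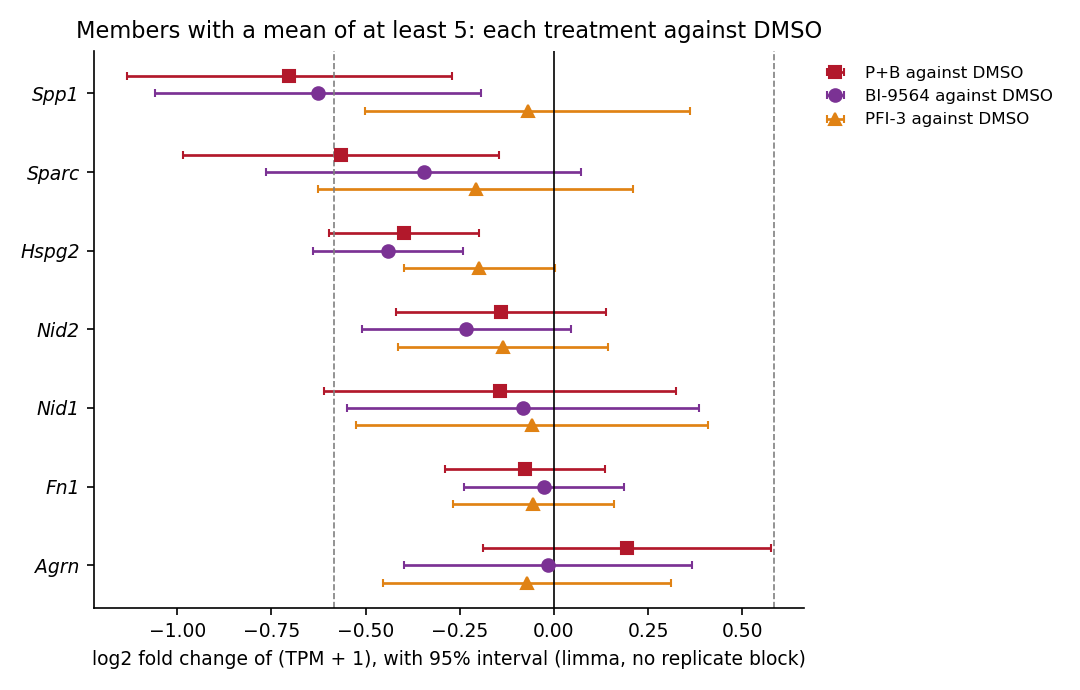
Log2 fold change of TPM + 1 (x axis) of the 7 members tested (y axis) against DMSO, for P+B (squares), BI-9564 (circles) and PFI-3 (triangles), each mean difference with its 95% interval from limma without a replicate block; dashed lines mark a fold of 1.5. For *Spp1* and *Hspg2* the BI-9564 estimate lies beside that of P+B and below that of PFI-3, and for *Fn1* all estimates lie between −0.08 and −0.03.

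The single compounds were compared with the same 2 DMSO libraries, so the comparisons share their controls. With BI-9564, 0 of 7 members passed both thresholds, beside 0.0783% of tested genes called lower and 0.0293% called higher. At an unadjusted p under 0.05 in limma there were 2 of 7 members, beside 1523 of 10222 tested genes. *Spp1* stood at −0.63 ± 0.19 in log2 (adjusted p = 0.197), which passed with the replicate block at 1.54-fold lower (adjusted p = 0.0141, 0.0141 to 0.508 over the alternatives), where 1.04% of tested genes were called lower. *Hspg2* was at −0.44 ± 0.09 (adjusted p = 0.108). Both genes were lower in every BI-9564 library than in every DMSO library, as were 18.3% of tested genes. *Sparc* was at −0.35 ± 0.18 (adjusted p = 0.414, or 0.032 at 1.27-fold with the replicate block) and *Nid2* at −0.23 ± 0.12 (adjusted p = 0.41). *Fn1*, *Nid1* and *Agrn* were at −0.03, −0.08 and −0.02, and *Thbs1* was at −0.26 ± 0.44 (adjusted p = 0.839).

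With PFI-3, 0 of 7 members passed and 0 had an unadjusted p under 0.05 in limma, where 0 of 10222 genes passed and 694 had an unadjusted p under 0.05. *Spp1* was at −0.07 ± 0.19 in log2 fold change (95% interval −0.50 to 0.36, adjusted p = 0.982) and *Sparc* at −0.21 ± 0.18 (−0.63 to 0.21, adjusted p = 0.907). *Hspg2* was at −0.20 ± 0.09 (adjusted p = 0.74) and was lower in every PFI-3 library than in every DMSO library, as were 12.8% of tested genes. *Fn1*, *Nid1*, *Nid2* and *Agrn* were at −0.05, −0.06, −0.13 and −0.07. *Thbs1* was at −1.37 ± 0.44 (adjusted p = 0.688), with both PFI-3 libraries lower, as were 11.8% of genes with a mean of at least 1.

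The compounds were then set against each other, again with 0 of 7 members past both thresholds in limma. At an unadjusted p under 0.05 there were 2 of 7 members and 1692 of 10222 tested genes for P+B against PFI-3. There were 0 and 815 for P+B against BI-9564, and 2 and 1448 for BI-9564 against PFI-3. Of all tested genes 1.05% were called lower and 0.264% higher in the first of these, 0.196% lower and 0% higher in the second, and 0.0783% lower and 0.0293% higher in the last. For P+B against PFI-3, which differ by BI-9564 and possibly in the dose of PFI-3, *Spp1* was at −0.63 ± 0.19 in log2 (adjusted p = 0.149). It passed with the replicate block at 1.55-fold lower (adjusted p = 0.00321, 0.00321 to 0.476 over the alternatives), where 2.4% of genes were called lower. *Sparc* was at −0.36 ± 0.18 (adjusted p = 0.37) and *Hspg2* at −0.20 ± 0.09 (adjusted p = 0.301). For all 3 of these genes each P+B library was below each PFI-3 library, as were 18.9% of tested genes. For P+B against BI-9564, which differ by PFI-3 and possibly in the dose of BI-9564, *Spp1* was at −0.08 ± 0.19 (95% interval −0.51 to 0.36, adjusted p = 0.974), *Sparc* at −0.22 ± 0.18 (adjusted p = 0.861) and *Hspg2* at 0.04 ± 0.09 (adjusted p = 0.961). *Thbs1* was at −1.40 ± 0.44 in that comparison (adjusted p = 0.528), with both P+B libraries lower, as were 13% of genes with a mean of at least 1, and at −0.29 ± 0.44 for P+B against PFI-3 (adjusted p = 0.805).

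For BI-9564 against PFI-3, the log2 value was −0.56 ± 0.19 for *Spp1* (adjusted p = 0.266), −0.24 ± 0.09 for *Hspg2* (adjusted p = 0.284), −0.14 ± 0.18 for *Sparc* (adjusted p = 0.795) and for *Thbs1* 1.11 ± 0.44 (adjusted p = 0.374). *Spp1* and *Hspg2* were lower in both BI-9564 libraries than in both PFI-3 libraries, as were 19.9% of tested genes. *Thbs1* was the reverse, higher in both BI-9564 libraries, as were 18.9% of genes with a mean of at least 1. With the replicate block, the adjusted p of *Spp1* was 0.0119 at 1.47-fold, under the fold threshold, and ranged from 0.0119 to 0.622 over the alternatives.

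A further pair of comparisons, added after the values had been seen, used all 8 libraries to ask about each compound whether or not the other was present. Against the 4 libraries without BI-9564, the 4 libraries with it had *Spp1* lower by a log2 fold change of −0.63 ± 0.13 (adjusted p = 0.0324), past both thresholds at 1.55-fold, where 1.99% of tested genes were called lower and 1.2% higher. The call was lost when any 1 of the 8 libraries was left out, with adjusted p between 0.0571 and 0.12, and the log2 fold change stayed between −0.74 and −0.52. *Hspg2* was at −0.32 ± 0.06 (adjusted p = 0.0238), 1.25-fold and so under the fold threshold, and *Sparc* at −0.35 ± 0.13 (adjusted p = 0.139). *Spp1* and *Hspg2* were the members with all 4 libraries lower, as were 6.04% of tested genes.

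Against the 4 libraries without PFI-3, the 4 with it had *Thbs1* at a log2 change of −1.39 ± 0.31 (adjusted p = 0.201), with all 4 libraries lower, as were 1.12% of genes with a mean of at least 1. *Spp1* was at −0.07 ± 0.13 (adjusted p = 0.909), *Sparc* at −0.21 ± 0.13 (adjusted p = 0.605) and *Hspg2* at −0.08 ± 0.06 (adjusted p = 0.719). Of the 7 members tested 0 passed in limma, where 0.323% of tested genes were called lower. At an unadjusted p under 0.05 there were 0 of the 7, beside 1106 of 10222 tested genes. For *Thbs1* and BI-9564 the value was −0.27 ± 0.31 (adjusted p = 0.648). In these libraries the lower levels of *Spp1* thus went with BI-9564 and those of *Thbs1* with PFI-3. Both comparisons were added after these values had been seen, so they are no independent test of that pattern. The *Spp1* call was lost when each library was left out in turn, and the *Thbs1* difference did not pass the test.

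The effect of P+B was also compared with the sum of the single compounds, a comparison that assumes equal doses alone and in P+B. Without the replicate block, no member passed the test of a departure from the sum, with an adjusted p of 1 and an unadjusted p above 0.05 for all 7. In that limma fit 0 of 10222 genes passed, with 333 at an unadjusted p under 0.05. With the block 0 of 10222 genes passed, and *Agrn* had an unadjusted p of 0.0221, where 588 genes were under 0.05. The difference was −0.01 in log2 for *Spp1* (95% interval −0.62 to 0.61) and −0.01 for *Sparc* (−0.60 to 0.58). These intervals, from the fit without the block, are wide, and for *Spp1* they reach past 1.5-fold in either direction. With the block they were −0.20 to 0.18 for *Spp1* and −0.20 to 0.17 for *Sparc*, within 1.5-fold.

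Genes that work with the members were read from 4 lists. The lists were chosen with earlier results of these data known. Their counts therefore describe the listed genes and do not test them against all genes. Each list is given by its counts and its median log2 fold change with P+B, beside the median of 0.06 and the 41.7% of genes below 0 among all tested genes, of which 2.72% were called lower and 1.28% higher. Of the 7 members tested, 6 were below 0, with a median of −0.14. Receptors had 15 of 29 genes tested, 11 below 0, a median of −0.32, and 5 called lower and 0 higher. Proteins that bind, process or cross-link the matrix had 14 of 32 genes tested, 10 below 0, a median of −0.71, and 7 called lower and 0 higher.

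Among the receptors called lower, *Itga3* and *Itga6* encode laminin-binding integrins. *Itga3* was at 61 and 75 TPM in DMSO libraries but 18 and 16 in P+B libraries, a log2 change of −1.93 ± 0.15 (adjusted p = 0.001). *Itga6* was at 201 and 177 TPM in DMSO libraries but 76 and 70 in P+B libraries, −1.36 ± 0.11 (adjusted p = 0.001). *Itga5*, whose product pairs with β1 integrin to bind fibronectin, was at 71 and 94 TPM against 32 and 38, −1.20 ± 0.21 (adjusted p = 0.0198), while the level of its ligand *Fn1* did not pass. *Plaur*, the urokinase receptor, fell from 304 and 255 TPM to 107 and 92, and *Itga7* from 9 and 13 TPM to 2 and 2.

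Of the processing and cross-linking genes, *Tgm2*, a transglutaminase that cross-links fibronectin, was at 26 and 21 TPM in DMSO libraries but 3 and 2 in P+B libraries (log2 change −2.81 ± 0.38, adjusted p = 0.00691). *Loxl4*, a lysyl oxidase, was at 11 and 9 TPM against 2 and 1 (−2.16 ± 0.36, adjusted p = 0.0155). *Timp1*, *Bmp1*, *Mmp14* and *Furin* of that list were also called lower, with log2 fold changes of −1.46 to −0.65. These folds were larger than that of any of the 7 members except for *Furin*, at −0.65 against −0.70 for *Spp1*.

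The laminins and network collagens of the basement membrane had 10 of 19 genes tested, 7 below 0, a median of −0.20, and 2 called lower and 0 higher. *Lama3*, a laminin α chain of epithelia, was at 24 and 31 TPM in DMSO libraries but 8 and 7 in P+B libraries (log2 change −1.74 ± 0.22, adjusted p = 0.00517). Other matrix glycoproteins had 15 of 78 genes tested, 10 below 0, a median of −0.18, and 2 called lower and 0 higher. *Tinagl1*, a matricellular protein that binds laminin and integrins, was at 61 and 80 TPM against 24 and 17 (−1.74 ± 0.19, adjusted p = 0.00296). *Ecm1* was at 16 and 10 TPM against 5 and 4 (−1.32 ± 0.28, adjusted p = 0.0389).

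With the single compounds no gene of these 4 lists passed both thresholds, where the replicate block gave 0 with PFI-3 and, with BI-9564, 2 receptors, 3 processing genes and 1 basement membrane gene called lower, beside 1.04% of all tested genes. The receptors had a median of −0.25 under PFI-3 and −0.20 under BI-9564, and the processing genes −0.38 and −0.35. The tested members had −0.07 under PFI-3 and −0.23 under BI-9564, while the median of all tested genes was 0.02 with either compound. All of these share the DMSO libraries.

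**Figure D3:**
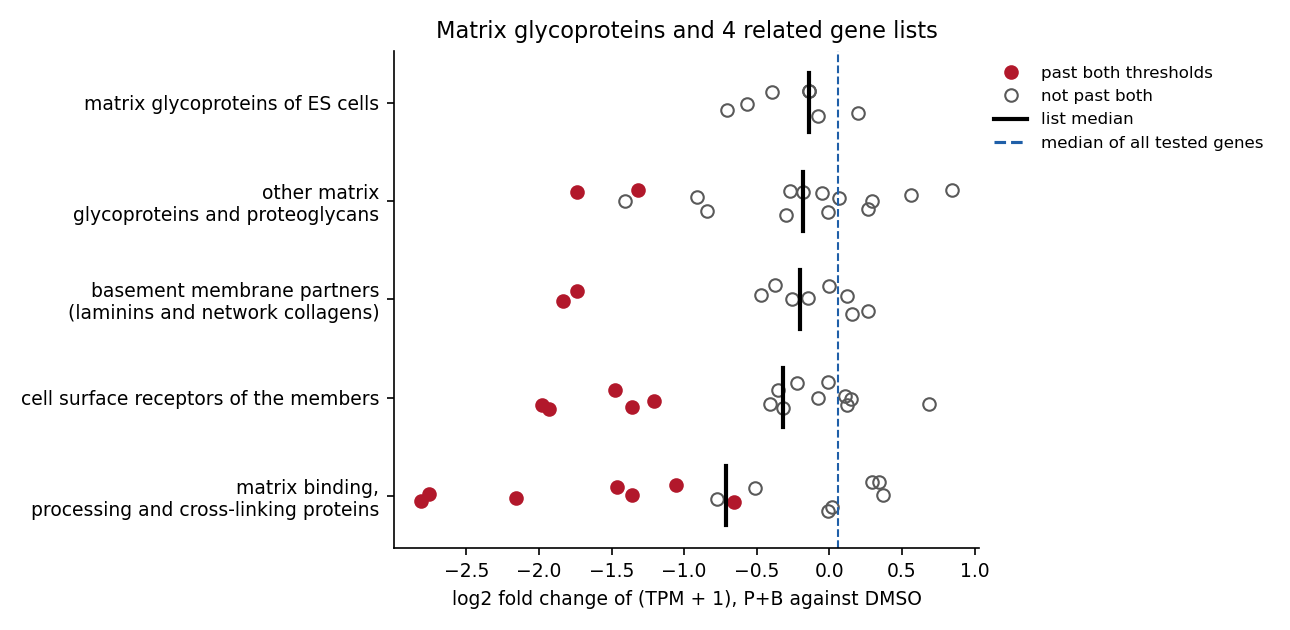
Log2 fold change of TPM + 1 for P+B against DMSO (x axis) for each tested gene of the members and of 4 related lists (y axis), with filled points past both thresholds, a black bar for the list's median and a dashed line for the median of all tested genes; vertical scatter within a list has no meaning. No member is filled, while 5 receptors and 7 processing genes are, all to the left of 0. The lists were chosen with earlier results of these data known.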

How the data were processed

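RNA-seq of 8 libraries, 2 for each of 4 treatments, was analysed. The authors deposited 1 table of all libraries. Its values were treated as a score, read as TPM made whole numbers before they were deposited. The authors name TPM as their RNA-seq unit, every value was whole and the libraries summed to 991574 to 991897, but the rounding itself is not described in the sources used here. The submitters' processing notes name bcl2fastq, Bowtie2 2.2.5, RSEM 1.3.0 and mm10. The paper names DESeq2, which needs counts and was not run. TPM keeps no depth, so no counting interval is given.

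Differences were taken on log2(value + 1) in limma 3.58.1 (R 4.3.3), with a trend on the mean and all groups in a single fit. Testing kept the 10222 of 50600 rows whose mean was 5 or more, and the table has 94 rows with a repeated name and 27 named as dates. P-values were adjusted by Benjamini-Hochberg over all tested genes. The 7 planned comparisons were each treatment against DMSO, the treatments against each other, and P+B against the sum of the single compounds. The 2 comparisons of libraries with and without a compound, and the block for *Thbs1*, were chosen after seeing the data.

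Groups share replicate numbers in their labels. Over genes, the change from replicate 1 to 2 in a group correlated with that in every other group (6 pairs, Pearson's r of 0.143 to 0.236). The numbers may therefore pair the libraries. The fit without a block, which gave the main results and their intervals, ignores this pairing. A fit blocked by replicate number uses it and stands beside the main results. For *Spp1* and P+B against DMSO the SE was 0.19 without the block and 0.06 with it. Residual degrees of freedom were 3 with the block, against 4 without it.

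The members and lists were chosen with earlier results of these data known. Genes named from the 4 lists are those past both thresholds with P+B, up to 3 per list with full values, plus *Itga6*, *Itga5*, *Timp1*, *Bmp1*, *Mmp14* and *Furin*, chosen after their values were seen. Some genes of the lists are counted but not reported here by name. The rule for naming genes most similar to a member applied only to a member called with P+B and so named none. Alternatives tried were the block, a pseudocount of 0.5 or 5, a filter at 1, at 20 or none, median centring, quantile normalization, no trend, a fit of the compared libraries alone, no fold threshold, a stricter adjusted p of 0.01, and omission of each library.

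The procedure was tested on simulated data with 10086 genes past the filter. For P+B against DMSO the calls covered 99 of 100 genes simulated with a log2 change of 2. They covered 79 of 100 at a change of 1, and 8 of 9886 left unchanged. Detection of smaller log2 changes was not tested. These include the −0.70 of *Spp1* with P+B, the largest of the 7 members tested. Positions are from GENCODE M21 on GRCm38, and promoter windows from RefSeq on GRCm38.p6, where 7 of the 10 members matched by symbol.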

Additional observations from a re-analysis of the deposited data

Results flagged for a closer look

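For *Nid2* and *Agrn*, the effect of PFI-3 pointed one way without BI-9564 and the other way with it, in both same-numbered pairs. Both were picked by this sign pattern, searched in the members for either compound. The share of all tested genes that show it was not computed, so it cannot be called unusual. *Nid2* was 22 and 5 TPM lower with PFI-3 than with DMSO, and 6 and 10 TPM higher with P+B than with BI-9564, a difference of effects of 0.23 in log2. *Agrn* was 6 and 5 TPM lower with PFI-3 alone, and 18 TPM higher in both pairs when it was added to BI-9564, a difference of 0.28. Neither passed limma's test of the difference (adjusted p = 1 for both without the replicate block, 0.853 for *Nid2* and 0.819 for *Agrn* with it). Without the block the 95% intervals were −0.17 to 0.62 for *Nid2* and −0.26 to 0.82 for *Agrn*. With the block they were −0.01 to 0.46 for *Nid2* and 0.05 to 0.51 for *Agrn*.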

How the results depend on the processing

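The number of members past both thresholds was 0 in each of the 7 planned comparisons, and 0 to 0 when each library was left out. It was 1 with the replicate block for P+B against DMSO, BI-9564 against DMSO and P+B against PFI-3 (*Spp1* each time). For P+B against DMSO it was also 1 with libraries centred on their median (*Spp1*) and 1 with no fold threshold (*Hspg2*). The block raised the genes called lower and higher with P+B from 278 and 131 to 419 and 299, and with BI-9564 from 8 and 3 to 106 and 50. For libraries with BI-9564 against those without, the count of 1 (*Spp1*) became 0 with a filter of at least 1, with no filter, with quantile normalization, without a trend and at an adjusted p threshold of 0.01, 2 with no fold threshold (*Spp1* and *Hspg2*), and 0 to 0 when each library was left out. With P+B and the block, other matrix glycoproteins had 3 genes called lower and 1 higher, against 2 and 0 without it. The cause of these moves was not tested. Members near 0 changed sign. With quantile normalization *Fn1* was at 0.016 with P+B and 0.034 with BI-9564, and *Agrn* at 0.028 with BI-9564. With median centring *Hspg2* was at −0.0034 for P+B against BI-9564. When each library was left out, *Fn1* ranged from −0.16 to 0.0083 with P+B, −0.13 to 0.026 with PFI-3 and −0.11 to 0.054 with BI-9564. *Nid1* ranged from −0.37 to 0.087, −0.20 to 0.087 and −0.29 to 0.12 in the same order. *Agrn* ranged from −0.21 to 0.072 with PFI-3 and −0.19 to 0.15 with BI-9564. *Spp1* ranged from −0.29 to 0.15 with PFI-3, −0.23 to 0.077 for P+B against BI-9564, and −0.19 to 0.039 for libraries with PFI-3 against those without. *Sparc* ranged from −0.34 to 0.069 for BI-9564 against PFI-3. None of these was called in either case. *Spp1* with P+B ranged from −0.89 to −0.52, *Sparc* from −0.76 to −0.37 and *Hspg2* from −0.43 to −0.37. Fits of only the libraries compared were not run for the sum of the single compounds or for libraries with and without a compound, and *Thbs1*, below the filter, was tested only with a filter of at least 1, with no filter and with the block. TPM holds no read numbers, so the limit set by depth is unknown.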
